A study of Mus musculus with 20 samples.

Results

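Mmp7, the gene of the defensin-activating protease matrilysin, was followed through every sample of a study that compared Spdef knockout (KO, Spdef-/-) with wild type mice. The member was found by its gene name among the probes of the array: 1 probe of 41174 carried the name Mmp7, and it is 1 of the 17076 named genes that were tested. The gene was chosen because it read higher in KO adult colon and lower in KO small intestine, so its KO over wild type values and its levels in all groups are given as a description with no test.

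Matrilysin is a secreted zinc protease of the matrix metalloproteinase family. In mouse small intestine it is stored in the granules of Paneth cells, the antimicrobial cells at the crypt base, and there it removes the inhibitory prosegment of the alpha-defensin precursors, which turns them into active bactericidal peptides. Healthy mouse colon is not known for Paneth cells, and matrilysin in colon is better known from injured epithelium and from tumours. Spdef is an ETS domain transcription factor of goblet and Paneth cells.

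The groups were adult small intestine (2 pairs of pools), adult colon (3 pairs), fetal small intestine (3 pairs) and fetal colon (2 pairs). Adult mice were at postnatal day 30 and fetal mice at embryonic stage E18.5. Each pair set RNA from Spdef KO mice against RNA from wild type mice of the same stage and tissue, each pool held RNA of 2 to 3 littermates from dissected whole organs, and both dye orders of a pair were hybridized to two-colour Agilent arrays, 20 arrays in all. The labels used here give neither the mouse strain nor the design of the Spdef allele, and littermates within a pool cannot be told apart. Pools of a group are the replicates, and where the labels do not say that pools came from separate litters, the errors may hold technical spread only.

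The labelled tissues were checked against genes of small intestine and of colon before any comparison. All adult pools and 3 fetal pairs matched their labels, and 2 fetal pairs went against theirs. The pair labelled fetal small intestine 3 read 8.76 (log2 intensity, wild type pool) for Lct, the milk-sugar enzyme of small intestine, and 11.64 for Hoxb13, a hindgut homeobox gene. The pair labelled fetal colon 1 read 16.37 for Lct and 6.99 for Hoxb13. The pairs labelled fetal small intestine 1 and 2 read 15.99 and 16.06 for Lct, and the pair labelled fetal colon 2 read 9.08. No pair was regrouped. Fetal values of Mmp7 against wild type, its stage differences and the fetal Paneth cell and metalloproteinase results are given with and without these 2 pairs. The difference between the pairs labelled fetal small intestine 1 and 2 was smaller than the noise between dye swaps of 1 pair (variance ratio 0.844, against 1.43 to 7.6 for other pairs of 1 group), so they were counted as 1 replicate, which leaves 9 replicates.

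Spdef itself was lower in KO in 10 of 10 pairs. In adult colon the log2 KO over wild type of Spdef was -3.30, -3.80 and -3.96, and in adult small intestine it was -1.68 and -2.86. It passed the test across all genes in adult colon (-3.69 ± 0.35 SE, n = 3, limma adjusted p = 0.002) and not in adult small intestine (adjusted p = 0.0951), fetal small intestine (adjusted p = 0.0673) or fetal colon (adjusted p = 0.154). Between 39.8% and 71.6% of the probes of a channel were well above background. Depth has no counterpart on arrays, and the number of pools, 2 or 3 in a group, limits the precision.

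The Mmp7 probe is the 60-base probe A_51_P426096, built on transcript NM_010810. The scanner files place it on chromosome 9 from 7697311 to 7697370 in build mm8. It was well above background in both channels on 20 of 20 arrays and saturated on 0. The files hold no probe sequence. The bases before the start of transcription are shown because the factor removed in these mice binds DNA and Mmp7 read differently in the 2 genotypes. The RefSeq promoter table lists 2 promoters for Mmp7, and the one with the most upstream start was used. RefSeq (GRCm38.p6) places the 250 bases at chr9:7691840-7692089 on the plus strand, and they read, 5′ to 3′:

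Mmp7 upstream: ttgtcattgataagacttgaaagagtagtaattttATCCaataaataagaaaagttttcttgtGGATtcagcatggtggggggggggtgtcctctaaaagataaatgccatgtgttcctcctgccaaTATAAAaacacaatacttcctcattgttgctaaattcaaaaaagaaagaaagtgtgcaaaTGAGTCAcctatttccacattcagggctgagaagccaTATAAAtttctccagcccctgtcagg

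Capitals mark 3 motifs, searched on both strands: TGAGTCA, the site of AP-1 factors, GGAT, the core of sequences that Spdef prefers, and TATAAA, the core promoter box. TGAGTCA occurs 1 time, from -63 to -57 relative to the start, and in 4.46% of the 32851 windows of this length in the RefSeq promoter table. TATAAA occurs 2 times, at -123 and at -26, and in 12.4% of the windows. GGAT occurs 2 times, read on the plus strand at -187 and on the minus strand at -215, and in 74.1% of the windows. GGAA, the common ETS core, occurs 3 times on the minus strand, not in capitals, and is in 93.4% of the windows. CTTTG, which was also searched, occurs 0 times and is in 48.6% of the windows. No protein binding was measured, and these matches only describe the letters.

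In adult colon Mmp7 read higher in the KO pool of every pair. The arrays with KO in Cy5 gave log2 KO over wild type of 3.30, 2.83 and 3.75 in pairs 1, 2 and 3, and the dye-swapped arrays gave 2.38, 2.23 and 2.99. The 3 pair means were 2.84, 2.53 and 3.37, which are 7.16-, 5.78- and 10.3-fold. Their mean was 2.91 ± 0.42 (SD, n = 3; SE of the fit 0.13), or 7.53-fold higher in KO.

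In adult small intestine Mmp7 read lower in the KO pool of both pairs. Pair 1 gave -0.46 and -1.07 on its 2 arrays and pair 2 gave -0.76 and -1.13. The pair means of -0.76 and -0.94 averaged -0.85 ± 0.13 (SD, n = 2; SE 0.16), which is 1.81-fold lower in KO. The slide that held both adult tissues, with adult small intestine 2 and adult colon 2, gave -0.94 for small intestine and 2.53 for colon, so the opposite signs stood side by side on 1 slide. These are whole-organ pools, in which fewer cells of a type and less RNA per cell cannot be told apart.

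The fetal pools also read lower in KO, by less than the adult colon pools read higher. The pair means were -0.71, -0.84 and -0.81 in the pairs labelled fetal small intestine 1, 2 and 3, and -0.48 and -0.36 in the pairs labelled fetal colon 1 and 2. All 5 fetal pairs were below 0, whichever tissue their profile showed. With 2 replicates each, the labelled groups averaged -0.80 ± 0.16 (SE) for fetal small intestine and -0.42 ± 0.16 for fetal colon. Without the 2 pairs that went against their labels the values were -0.78 ± 0.26 and -0.36 ± 0.26. Fetal signals were dim, with processed intensities of 694, 715 and 407 in the wild type pools labelled fetal small intestine. Wild type adult colon was as dim, at 506, 441 and 529. The offset added in background correction draws dim ratios towards 0. The scanner's own processed signals gave -1.21 for fetal small intestine and -0.85 for fetal colon. They gave -0.87 for adult small intestine and 3.17 for adult colon. The part of the offset in these differences was not tested.

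**Figure D1:**
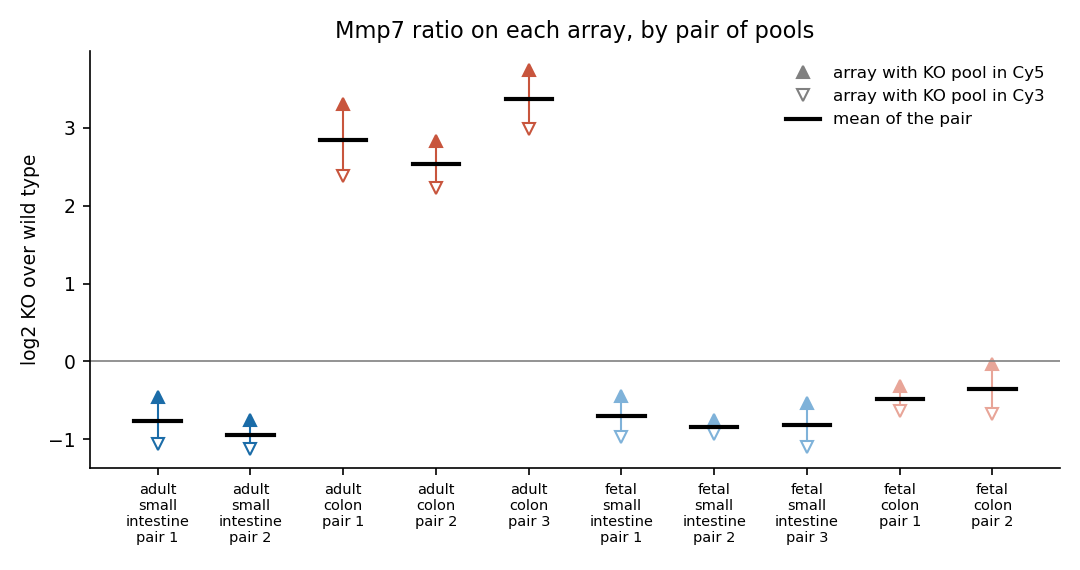
Log2 KO over wild type of Mmp7 (y axis) on each array, by pair of pools (x axis). Triangles are the 2 dye orders of a pair and the black line is their mean. The 6 adult colon arrays lie between 2.23 and 3.75, and the other 14 arrays lie below 0.

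Both dye orders gave the same sign in every pair. The array with KO in Cy5 read higher than its swap in 10 of 10 pairs, by 0.18 to 0.92 (median 0.59), a dye difference that the pair mean cancels. It was close in size to the fetal colon values, where pair 2 read -0.04 in one order and -0.68 in the other.

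The level of Mmp7 in each channel was read from log2 intensities scaled between arrays. Wild type adult small intestine had the highest level, at 13.76 and 13.13. KO adult small intestine followed at 12.998 and 12.19. KO adult colon read 12.53, 11.03 and 12.18. Wild type adult colon read 9.69, 8.50 and 8.81, so each KO colon pool was above every wild type colon pool.

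In these scaled levels KO adult colon was thus below wild type adult small intestine and within reach of KO adult small intestine. The group means were 11.91 ± 0.78 (SD, n = 3) for KO colon, 13.45 ± 0.44 (SD, n = 2) for wild type small intestine and 12.59 ± 0.57 (SD, n = 2) for KO small intestine. The KO colon level was lower than the wild type small intestine level by 1.53 ± 0.59 (log2, SE), that is, 34.5% of it. No KO colon pool reached a wild type small intestine pool, whereas the KO colon and KO small intestine pools overlapped on this scale. On the slide that held both tissues KO colon read 11.03 and wild type small intestine 13.13. In the scanner's processed intensities, geometric means over the 2 arrays of a pool were 4236, 3246 and 6190 in KO colon. They were 19313 and 13061 in wild type small intestine and 506, 441 and 529 in wild type colon. In KO small intestine they were 11171 and 6794, above every KO colon pool. Scaled by the 75th percentile of those signals, KO colon was lower than wild type small intestine by 2.13 (log2). That was the widest gap over 14 alternatives, which ran from -2.13 to -1.09. With that scaling the KO colon pools, at 2.94, 2.09 and 2.97, also lay below the KO small intestine pools, at 4.38 and 3.50.

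The order of all 8 group levels had 1 wide step. Below KO adult colon came a gap of 2.90, and then wild type fetal small intestine (9.02 ± 0.69 SD, n = 2), wild type adult colon (9.001 ± 0.62, n = 3), wild type fetal colon (8.54 ± 0.82, n = 2), KO fetal small intestine (8.22 ± 0.72, n = 2) and KO fetal colon (8.12 ± 0.73, n = 2). Each of these 5 lower groups overlapped its neighbour. At the top, the wild type and KO pools of adult small intestine did not overlap, and KO colon did not overlap wild type fetal small intestine.

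**Figure D2:**
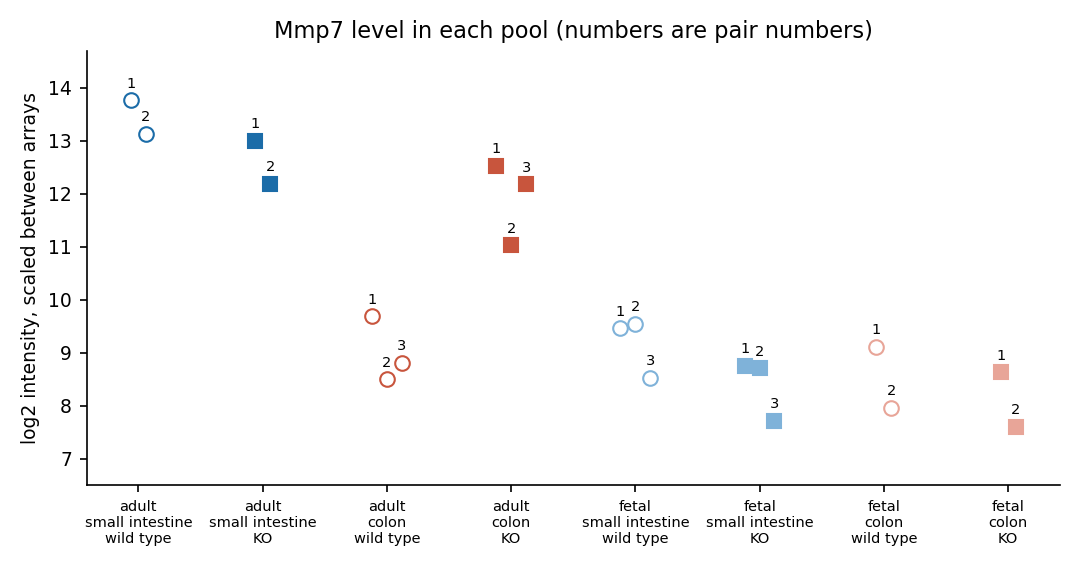
Mmp7 level (y axis, log2 intensity scaled between arrays) in each pool, by stage, tissue and genotype (x axis). Open circles are wild type pools, filled squares are KO pools, and numbers are pair numbers. The KO adult colon pools, at 11.03 to 12.53, lie far above the wild type colon pools, at 8.50 to 9.69, and below the wild type small intestine pools, at 13.13 and 13.76.

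The wild type level is the denominator of the ratios that the gene was chosen for, so the wild type differences between tissues and stages are descriptions too. Wild type adult small intestine exceeded wild type adult colon by 4.45 ± 0.59 (log2, SE), or 21.8-fold. Every wild type small intestine pool was above every wild type colon pool. Without adult small intestine pair 1 the difference was 4.13.

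In small intestine the adult wild type level was above the fetal one. The wild type pools labelled fetal small intestine read 9.46, 9.55 and 8.53, against 13.76 and 13.13 in adults, a difference of 4.43 ± 0.69 (SE), or 21.6-fold. Without the 2 pairs that went against their labels it was 3.94, and without adult small intestine pair 1 it was 4.12. The 2 stages thus did not overlap in small intestine. In colon the wild type adult level differed from the fetal level by 0.46 ± 0.63, and by 1.04 without those 2 pairs. The wild type pools labelled fetal colon read 9.12 and 7.96, and the first of these is the pair with the small intestine profile. The adult and fetal colon pools overlapped only through that pool at 9.12. The fetal colon pool at 7.96 lay below every wild type adult colon pool, the lowest of which read 8.50.

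The alpha-defensins, whose precursors matrilysin activates, were lower in KO adult small intestine and near background in colon of either genotype. In adult small intestine 9 of 13 alpha-defensin genes fell and 0 rose, with a median log2 KO over wild type of -1.32, against -0.0087 over all genes and 0.398% of genes called, 0.164% as higher and 0.234% as lower. Defa22 read -1.08 and -1.30 in the 2 pairs and fell by 1.19 ± 0.069 (SE, limma adjusted p = 0.000381), Defa39 fell by 1.07 ± 0.063 (adjusted p = 0.000381) and Defa20 fell by 1.62 ± 0.12 (adjusted p = 0.0023). Defcr4 fell by 1.39 ± 0.13 (adjusted p = 0.00615). Alpha-defensin genes are near-identical copies, and their probes may read each other's transcripts. The count was 5 without adult colon pair 1, which shares the estimate of spread, and 5 without the 2 fetal pairs that went against their labels. It was 1 with the scanner's processed signals and 0 with each group fitted alone, and ran from 0 to 10 over 24 alternatives. It was also 1 with the strict filter, which kept only probes well above background in both channels on all 20 arrays. At most 1 of the 13 genes could meet that filter, since only 1 was well above background throughout adult colon.

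In adult colon 0 of 13 alpha-defensin genes passed limma's test, with 1 higher and 0 lower at an unadjusted p under 0.05 and a median of 0.14. Of the 13 genes 12 read above 0. Mean levels in colon lay between 6.96 and 7.46 (log2) in KO and between 6.92 and 7.24 in wild type, against 12.42 to 18.33 in wild type small intestine. On no colon array were 8 of the 13 genes well above background in the wild type channel, nor 4 of the 13 in the KO channel. Only 1 of the 13 was well above background in both channels on all colon arrays. The summed intensity of the list was 1720 to 2090 in KO colon pools and 1660 to 1880 in wild type colon pools, against 2120000 to 2300000 in wild type small intestine. With the scanner's processed signals 3 of the 13 passed as higher in KO colon. KO colon thus had an Mmp7 level at 34.5% of that of wild type small intestine while alpha-defensin signal remained near background.

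Among 26 other Paneth cell genes tested, 13 of them the alpha-defensins above, the adult colon held 1 that rose beside Mmp7 and 1 that fell. In that comparison 9.59% of all genes were called, 3.93% as higher and 5.66% as lower. Itln1, which encodes the lectin intelectin, rose in adult colon by 3.17 ± 0.44 (SE, limma adjusted p = 0.00701), with 2.58, 2.17 and 4.76 in the 3 pairs. Its KO colon pools read 12.68, 14.15 and 14.42 and its wild type colon pools 10.11, 11.98 and 9.66, with no overlap. Copz2, a coat protein subunit, fell by 0.33 ± 0.082 (adjusted p = 0.0436). The list's median in adult colon was 0.13. Its shares called higher and lower were not above those of all genes, so the counts are no result about the list. With median centring in place of loess, and with each group fitted alone, 0 of the 26 passed as higher.

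Ang4, an antimicrobial ribonuclease, read 2.33, 0.37 and 4.07 in the adult colon pairs (2.26 ± 0.62 SE, adjusted p = 0.0565). Lyz1, the Paneth cell lysozyme, read 0.31, 0.27 and 0.25 there (0.28 ± 0.12, adjusted p = 0.192). In adult small intestine 10 of the 26 genes fell and 0 rose, and the list's median, with Mmp7, was -0.85. Of those 10 genes, 9 are the alpha-defensins counted above and the other is Lyz1. Of all genes 0.234% were called lower and 0.164% higher there. Lyz1 fell by 1.54 ± 0.15 (adjusted p = 0.00689), whereas Itln1 read -0.93 and -1.49 (adjusted p = 0.426) and Ang4 0.70 and -1.32 (adjusted p = 0.93). The count of 10 was 6 without adult colon pair 1, 6 without the 2 fetal pairs and 2 with the scanner's processed signals. It was 0 with each group fitted alone and ran from 0 to 13 over 24 alternatives. With the strict filter, which left at most 1 alpha-defensin gene to test, it was 2.

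The difference between adult tissues in KO over wild type was tested for these genes in the same fit. It was 1.82 ± 0.20 (SE) for Lyz1 (adjusted p = 0.0136), 4.38 ± 0.69 for Itln1 (adjusted p = 0.0796) and 2.57 ± 0.98 for Ang4 (adjusted p = 0.463). The same difference for Mmp7, chosen by the rule and not tested, was 3.77.

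The KO colon level set against wild type small intestine differed from gene to gene. For Lyz1, KO colon minus wild type small intestine was -4.26 ± 0.37 (log2, SE, limma adjusted p = 0.000103), and for Pla2g2a, a bactericidal phospholipase, it was -2.66 ± 0.64 (adjusted p = 0.0325), where 4.64% of genes were called lower in KO colon. Defa20 differed by -10.94 ± 0.32 (adjusted p = 1.34e-07). Itln1 differed by -2.19 ± 1.59 (adjusted p = 0.482) and Ang4 by 1.14 ± 2.29 (adjusted p = 0.825). The gap for Mmp7, -1.53 ± 0.59, was smaller than those of Lyz1, Pla2g2a and Defa20 in these values, and the differences between genes were not tested.

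**Figure D3:**
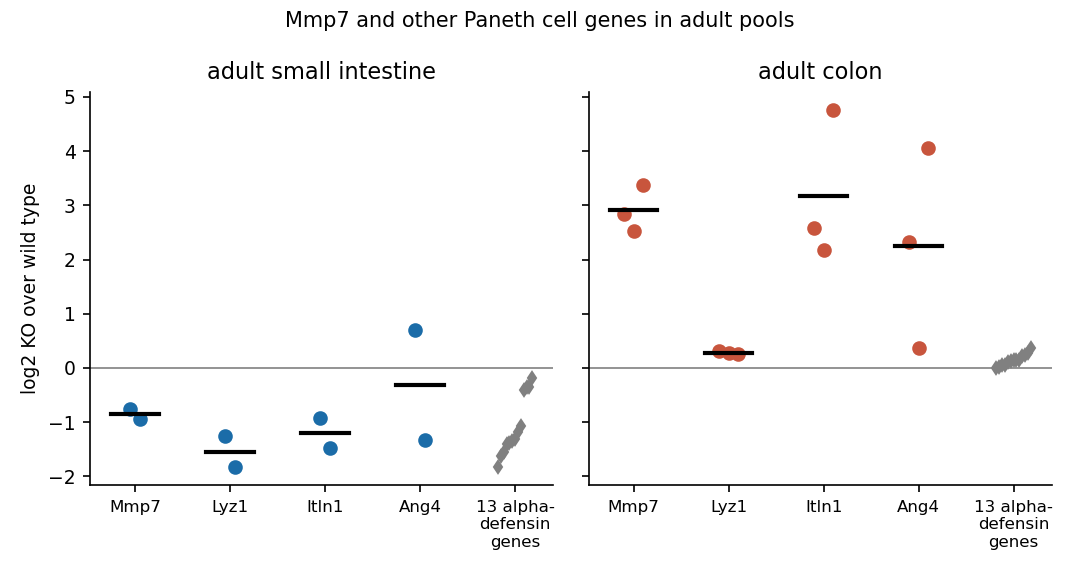
Log2 KO over wild type (y axis) of Mmp7, Lyz1, Itln1 and Ang4 in each adult pair (circles, with the mean as a black line) and the group values of the 13 alpha-defensin genes (grey diamonds), in adult small intestine (left) and adult colon (right). In colon, Mmp7 lies at 2.53 to 3.37 and Itln1 at 2.17 to 4.76 while the alpha-defensins lie at -0.0074 to 0.37.

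In the fetal pools 4 of the 13 alpha-defensin genes fell in the group labelled small intestine (Defa20, Defa21, Defa39 and Defcr4), with a median of -0.71 and 0.439% of genes called, 0.31% as lower, and 0 of 13 passed in the group labelled colon (limma; 1 higher and 1 lower at an unadjusted p under 0.05, with 0.287% of genes called). Defa20 read -0.61, -0.63 and -1.07 in the pairs labelled fetal small intestine and -0.25 and -0.32 in those labelled fetal colon. Itln1 read -0.57, -0.56 and 0.24, then -1.11 and -0.27. Lyz1 read -0.47, -0.53 and 0.034, then -0.12 and 0.17. Ang4 read -0.92, -0.94 and -0.57, then 0.74 and 1.62. None of Itln1, Lyz1 and Ang4 passed in either fetal group, where the smallest of their adjusted p-values was 0.905.

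The fetal defensin calls rested in part on the 2 pairs that went against their labels. Without those pairs 1 of 13 alpha-defensin genes fell in the group labelled small intestine, Defa21 by 2.47 (limma adjusted p = 0.00279), with 0.082% of genes called and a median of -0.51. Defa20 then read -0.62 (adjusted p = 0.557), Defcr4 -0.74 (adjusted p = 0.491) and Defa39 -0.49 (adjusted p = 0.141). In the group labelled colon 0 of 13 passed, with 0 higher and 0 lower at an unadjusted p under 0.05 and 0.164% of genes called. The count in fetal small intestine ran from 0 to 9 over 23 alternatives. Lyz1 read -0.50, Itln1 -0.57 and Ang4 -0.93 in fetal small intestine without those pairs, and 0.17, -0.27 and 1.62 in fetal colon, and none of these values passed.

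Among the other matrix metalloproteinases, none read a change near that of Mmp7. The array held 21 members of the family and 13 were tested. In adult colon 4 of the other 12 rose and 0 fell, all by under 0.4 (log2), where 3.93% of all genes were called higher and 5.66% lower. Mmp3 (stromelysin-1) read 0.24, 0.38 and 0.28 in the 3 pairs and rose by 0.30 ± 0.043 (SE, limma adjusted p = 0.00815). Mmp10 (stromelysin-2) rose by 0.36 ± 0.085 (adjusted p = 0.0376), Mmp13 (collagenase-3) by 0.22 ± 0.054 (adjusted p = 0.0451) and Mmp28 (epilysin) by 0.24 ± 0.057 (adjusted p = 0.0406). The count of 4 was 1 or 2 without each replicate in turn, 1 without the 2 fetal pairs that went against their labels, 1 with the scanner's processed signals, and 0 with median centring or with each group fitted alone.

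Of the other 12 metalloproteinases, 0 passed limma's test in adult small intestine, with 0 higher and 1 lower at an unadjusted p under 0.05, in a comparison that called 0.398% of all genes. None of the 12 passed in the fetal groups either, where 0 reached an unadjusted p under 0.05. Without the 2 pairs that went against their labels 0 of 12 passed in both, with 0 higher and 3 lower at an unadjusted p under 0.05 in the group labelled small intestine and 0 in the group labelled colon.

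Of the 5 inhibitors of these proteases, adult colon had 1 that rose and 1 that fell, against 9.59% of all genes called. Timp1 read 0.22, 0.54 and 0.38 in the 3 pairs and rose by 0.38 ± 0.067 (SE, limma adjusted p = 0.016). Timp3, the inhibitor that binds extracellular matrix, read -0.48, -0.58 and -0.45 and fell by 0.50 ± 0.061 (adjusted p = 0.00426). Timp1 lost its call without adult colon pair 2 and without pair 3. Timp2 read -0.28 (adjusted p = 0.12). In adult small intestine, where 0.398% of all genes were called, 0 of 5 passed limma's test, with 0 higher and 1 lower at an unadjusted p under 0.05.

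**Figure D4:**
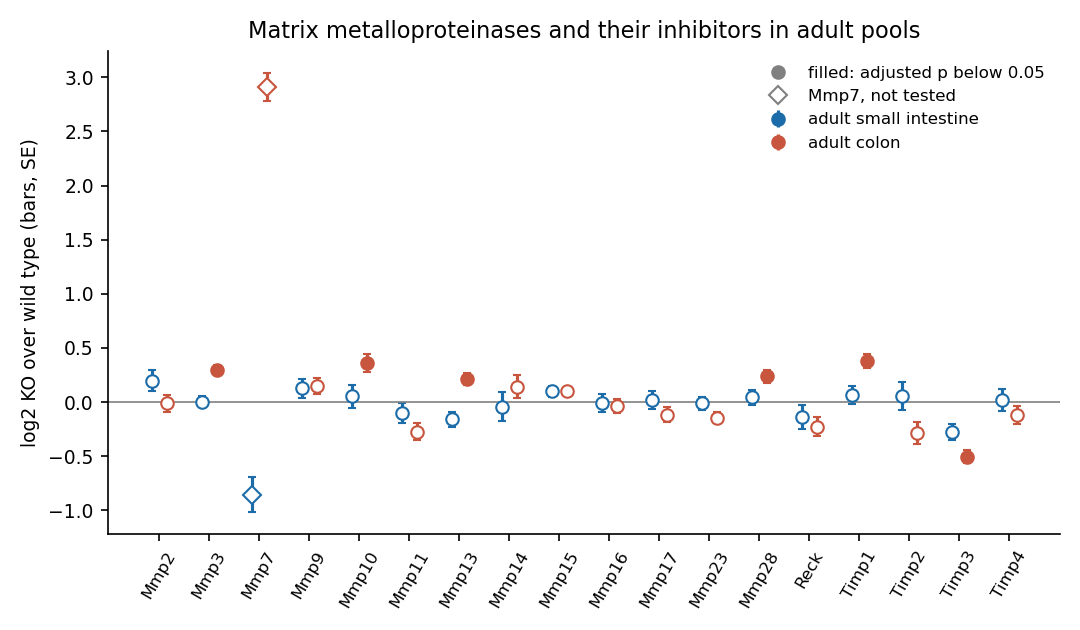
Log2 KO over wild type (y axis, with SE bars) of 13 matrix metalloproteinases and 5 inhibitors in adult small intestine (blue) and adult colon (red). Filled circles passed at an adjusted p below 0.05 and diamonds are Mmp7, which was not tested. Mmp7 lies at 2.91 in colon and -0.85 in small intestine, and the filled circles lie between -0.50 and 0.38.

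Of 16 tested genes for proteins that matrilysin cleaves or docks on, 2 rose and 0 fell in adult colon, where 9.59% of all genes were called, so the share is near that of all genes and is no result about the list. Hbegf, the heparin-binding growth factor whose precursor matrilysin can shed, read 0.58, 0.55 and 0.65 in the 3 pairs and rose by 0.59 ± 0.041 (SE, limma adjusted p = 0.000411). Sdc1, the cell-surface proteoglycan syndecan-1, rose by 0.28 ± 0.053 (adjusted p = 0.0187). The count was 1 without adult colon pair 1, 1 without pair 3 and 1 without the 2 fetal pairs. With median centring in place of loess, which called 57 genes in all in adult colon, 0 genes rose among these, the inhibitors, the transcription factors below and the metalloproteinases other than Mmp7. Cdh1, for E-cadherin, read 0.027 (adjusted p = 0.862). None of the 16 passed limma's test in adult small intestine, with 4 higher and 0 lower at an unadjusted p under 0.05. Of all genes 0.398% were called there.

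Of 22 tested transcription factors known to act on the Mmp7 promoter or related to such factors, 2 rose and 2 fell in adult colon, against 3.93% of all genes called higher and 5.66% lower, and 1 of the 2 that fell is the knocked-out Spdef itself. Etv4, an ETS factor of the PEA3 group, rose by 0.47 ± 0.076 (adjusted p = 0.0111) and Fos, an AP-1 subunit, by 0.36 ± 0.049 (adjusted p = 0.00667). The other that fell was Ehf, an epithelial ETS factor (-0.28 ± 0.072, adjusted p = 0.0496). The count that rose was 1 without adult colon pair 1, and the count that fell was 1 without any one of the adult colon or fetal colon pairs. In adult small intestine 0 of 22 passed limma's test, with 2 higher and 1 lower at an unadjusted p under 0.05. Of all genes 0.398% were called there.

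Wnt target genes of the crypt did not pass in either adult tissue. In adult colon 0 of 17 passed limma's test, with 2 higher and 4 lower at an unadjusted p under 0.05 and a median of -0.012. In adult small intestine 0 of 17 passed, with 2 higher and 0 lower at an unadjusted p under 0.05. Of all genes 9.59% were called in adult colon and 0.398% in adult small intestine. Axin2, a feedback inhibitor of the pathway, read 0.053 in colon (adjusted p = 0.7) and Lgr5, the stem cell receptor, -0.13 (adjusted p = 0.276).

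Markers of other cells were read beside Mmp7, and 3.93% of all genes were called higher and 5.66% lower in adult colon. In adult colon 11 of 18 goblet cell genes fell and 1 rose, the trefoil peptide gene Tff3 (0.56 ± 0.085, adjusted p = 0.00994). The 11 include the knocked-out Spdef itself, and the list was chosen with earlier results of these data known. All 12 epithelial genes read above 0 (median 0.089) and 2 of them passed, Krt19 at 0.30 (adjusted p = 0.0254) and Krt8 at 0.29 (adjusted p = 0.0145). The list's summed intensity was 852000 to 959000 in KO and 747000 to 901000 in wild type. Of 16 inflammation genes 3 rose: Il1b by 0.76 ± 0.10 (adjusted p = 0.00671), Ptgs2 by 0.48 ± 0.047 (adjusted p = 0.002) and Reg3b by 0.62 ± 0.10 (adjusted p = 0.0115), with summed intensities of 192000 to 202000 in KO and 201000 to 217000 in wild type. Of 8 macrophage and neutrophil genes 0 passed limma's test, with 2 higher and 0 lower at an unadjusted p under 0.05, and summed intensities of 23800 to 38400 and 22200 to 32600. All 10 fibroblast and smooth muscle genes read below 0 (median -0.34) and 0 passed, with 0 higher and 7 lower at an unadjusted p under 0.05, and summed intensities of 252000 to 342000 in KO and 338000 to 398000 in wild type. Of the 16 colon genes used in the tissue check, 4 fell and 0 rose in adult colon. None of the 16 read above 0, and their median was -0.21. Of its 20 small intestine genes 0 passed limma's test, with 0 higher and 0 lower at an unadjusted p under 0.05. The part of these cell types and tissue genes in the Mmp7 values was not tested.

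Pancreatic enzyme genes varied between adult pools. Their summed intensity ran from 8160 to 856000 in wild type colon pools, and the list's median KO over wild type was 0.93 in one adult small intestine pair and -3.60 in the other. Mmp7 had the same sign in both those pairs. In KO colon pools the list's summed intensity ran from 6720 to 101000. None of the 13 genes read above 0 in adult colon, with a median of -1.79 and pair medians from -2.97 to -0.053. There 0 passed limma's test, with 0 higher and 5 lower at an unadjusted p under 0.05, where 9.59% of all genes were called. The part of pancreatic tissue in the Mmp7 values was not tested. In adult small intestine 5 of 18 goblet genes fell and 0 rose, and 1 of 8 macrophage and neutrophil genes fell, the lysozyme gene Lyz2 (-0.90 ± 0.076, adjusted p = 0.00328). Of all genes 0.164% were called higher and 0.234% lower in adult small intestine.

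Genes whose KO over wild type ran most like that of Mmp7 were ranked by Pearson's r over the 9 replicates, among the 1636 other genes called in adult colon. The adult colon replicates stand apart from the rest, so each r mostly restates a difference between adult colon and the other groups and is a description only. Their adult colon calls are no independent evidence, since only called genes were ranked. The highest were Akr1c21, a hydroxysteroid dehydrogenase (r = 0.992), Gata2, a zinc-finger transcription factor (0.986), Ms4a6b (0.983), Dnph1, a nucleotide hydrolase (0.979), Hbegf (0.979) and Fpr1, a formyl peptide receptor (0.974). The lowest were Amhr2, the receptor of anti-Müllerian hormone (-0.994), A4gnt, which adds N-acetylglucosamine to gastric-type mucins (-0.989), and Slc5a6, a vitamin transporter (-0.977).

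Akr1c21 read 3.91, 4.14 and 4.83 in the adult colon pairs and 0.0057 and 0.073 in the adult small intestine pairs. Its KO colon pools were at 12.20, 11.27 and 11.81 and its wild type colon pools at 8.30, 7.14 and 6.99. Unlike Mmp7, whose level was highest in wild type small intestine, Akr1c21 read 7.22 there on average. Gata2 rose in adult colon by 1.12 ± 0.057 (SE, limma adjusted p = 8.29e-05), and Dnph1 by 0.61 ± 0.041 (adjusted p = 0.000348). Amhr2 fell by 1.08 ± 0.045 (adjusted p = 3.24e-05), with its KO channel well above background on 1 of 6 colon arrays and its wild type channel on 6 of 6. A4gnt was well above background on 0 of 6 arrays in KO colon and on 6 of 6 in wild type colon, with measured means of 7.01 and 7.81 (log2). Set against the lowest signal well above background on each array, it was at least 1.72-fold lower in KO (adjusted p = 0.000411).

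By level over the 10 adult pools, among the 2145 genes whose levels spanned at least 2 (log2), the 6 most like Mmp7 were Ces1c, a carboxylesterase (r = 0.879), Itln1 (0.865), Serpina1d, an alpha-1-antitrypsin (0.857), Guca2b, the gut peptide uroguanylin (0.844), Sulf2, a heparan sulfatase (0.841), and Gchfr, a regulator of GTP cyclohydrolase (0.836). The 2 pools of a pair share arrays, and the pools fall into tissues and genotypes, so these values too are descriptions. The ranking used the KO and wild type pools of both adult tissues, so the adult changes given next are no independent evidence. In adult colon Guca2b rose by 1.02 ± 0.098 (adjusted p = 0.002), Sulf2 by 0.42 ± 0.053 (adjusted p = 0.00515) and Gchfr by 0.52 ± 0.081 (adjusted p = 0.0105). Ces1c had the same pair of signs as Mmp7, at 0.79 ± 0.25 in adult colon (adjusted p = 0.0864) and -1.09 ± 0.31 in adult small intestine (adjusted p = 0.224), without passing in either.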

How the data were processed

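Spdef KO and wild type pools were compared on 20 two-colour arrays. Agilent Feature Extraction 9.5.3 read the spots, per the file headers. The deposited mean, background and processed signals are linear intensities, the deposited log10 ratio of each array is red over green processed signal, and the deposited series table holds log2 ratios, used only as an alternative. Here, limma 3.58.1 (R 4.3.3) applied normexp background correction (offset 50) and loess with control spots at weight 0. Dye swaps were averaged, 1 fit of all groups gave moderated tests with 5 residual degrees of freedom, and p-values were adjusted by Benjamini-Hochberg over 17076 genes at 0.05. Levels come from loess and Aquantile scaling with pair as a random block; adult contrasts used adult pools. Of several probes of a gene, the one with the highest mean signal stands for it. Gene names of the files were brought up to date with RefSeq by accession (23374 probes) or symbol. The named genes are Mmp7, Spdef, the genes most and least like Mmp7 by Pearson's r, and from each list up to 4 that passed with the smallest adjusted p in an adult tissue, all where 5 or fewer passed, with every metalloproteinase and inhibitor open to naming; Lct, Hoxb13, Cdh1, Axin2, Lgr5 and Pla2g2a were named after their values were seen. Mmp7 and all lists were chosen with earlier results of these data known. The tests planned for its wild type levels are not given, since the choice used those levels. Alternatives covered background, normalization, filter, probe, block, prior, arrays and left-out replicates. The fits were tested on simulated data.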

Additional observations from a re-analysis of the deposited data

Results flagged for a closer look

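The log2 KO over wild type of Mmp7 lay above 0 in all 3 adult colon pairs and below 0 in every pair of each other group. The difference from adult colon was 3.77 for adult small intestine, 3.71 for fetal small intestine and 3.33 for fetal colon. These differences were not tested, since the gene was chosen for them.

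The tissue difference in KO over wild type, adult colon minus adult small intestine, passed limma's test of that difference for 7 other genes named here or on the lists. The share of all genes that passed this test is not given, so the count is no result about these genes as a set. The difference was 4.25 for Akr1c21 (adjusted p = 0.000488), 1.17 for Gata2 (adjusted p = 0.00196), -1.06 for Amhr2 (adjusted p = 0.00112), 1.82 for Lyz1 (adjusted p = 0.0136), 1.77 for Defa20 (adjusted p = 0.00604), 1.54 for Defcr4 (adjusted p = 0.015) and 1.10 for Lyz2 (adjusted p = 0.00546). Akr1c21, Gata2 and Amhr2 were named for running like or opposite to Mmp7 over the same values, which is no independent evidence. Some of these genes were dim: in adult colon the KO and wild type channels were well above background on 4 and 3 of 6 arrays for Defa20, on 3 and 3 for Defcr4 and on 1 and 6 for Amhr2, and in adult small intestine on 2 and 3 of 4 for Akr1c21 and on 1 and 3 of 4 for Amhr2. A4gnt, Defa1, Defa22 and Defa39 also passed but are given no value, since 1 channel or both were well above background on no array of an adult tissue. No group of a single kind held enough replicates to look for an outlying sample.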

How the results depend on the processing

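KO over wild type of Mmp7 kept its sign under every alternative run: 2.69 to 3.19 in adult colon over 24 alternatives, -1.05 (median centring) to -0.62 (replicate block) in adult small intestine over 24, -1.26 (replicate block) to -0.78 for fetal small intestine over 23 and -0.85 to -0.19 (replicate block) for fetal colon over 23. Fetal small intestine and fetal colon moved to -1.22 and -0.85 with the scanner's processed signals, -1.21 and -0.85 with the series table, -0.90 and -0.55 without background subtraction, and -0.84 and -0.59 with median centring. Leaving out a replicate gave 2.69 to 3.10 for adult colon, -0.94 to -0.76 for adult small intestine, -0.48 to -0.36 for fetal colon and -0.81 to -0.78 for fetal small intestine. The wild type tissue difference ran from 4.13 to 5.33 (75th percentile scaling of the processed signals) over 15 alternatives and from 4.13 to 4.79 without a replicate. The stage difference in small intestine ran from 3.94 to 5.09 over 19 and from 3.94 to 4.92 without a replicate. That in colon ran from -0.12 (without fetal colon replicate 2, where its sign turned) to 1.04 over 19.

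Counts of genes called were 68 for adult small intestine, 1637 for adult colon, 75 for fetal small intestine and 49 for fetal colon. They moved more, given here with the groups ordered that way: 112, 911, 49 and 87 with processed signals; 20, 57, 10 and 5 with median centring; 13, 962, 31 and 15 with a trended, robust prior; 501, 3047, 348 and 198 with every array its own observation; and 0 (1833 at an unadjusted p under 0.05), 214, 28 and 131 with each group fitted alone. With adult groups only they were 27 and 781; without the 2 fetal pairs that went against their labels, 27, 781, 14 and 28. The series table gave 586 in adult colon, the strict filter 44 in fetal small intestine, no background subtraction 106 in fetal colon, and fetal small intestine pairs 1 and 2 kept separate 133 in adult and 351 in fetal small intestine. Leaving out a replicate gave 34 to 100, 307 to 1667, 31 to 77 and 16 to 56. The causes were not tested.

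Replicate numbers did not pair the samples: deviations of same-numbered replicates correlated at -0.133 to 0.152 and those of different numbers at -0.158 to 0.158. The replicate block gave 44 genes for adult small intestine, 5 for fetal small intestine and 23 for fetal colon, with Mmp7 at -0.62, -1.26 and -0.19. Signal over background limits the fetal ratios, the wild type colon level of Mmp7 and the alpha-defensins in colon.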
